A study of Mus musculus with 12 samples.

Results

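Heat shock proteins and their DnaJ co-chaperones were followed here as a set of 72 genes, out of 18193 genes on the array with a gene symbol of their own. The members were the genes whose platform symbol begins with Hspa, Hspb, Hsp90, Dnaja, Dnajb or Dnajc, together with Hspd1, Hspe1 and Hsph1. By symbol they comprised 14 genes of the Hsp70 family (Hsph1 included), 2 Hsp90 genes, 8 small heat shock proteins, the mitochondrial chaperonin pair Hspd1 and Hspe1, and 4 DnaJA, 13 DnaJB and 27 DnaJC genes. The remaining 2, Hspbp1 and Hspbap1, carry the Hspb prefix but encode proteins that bind Hsp70 and Hspb1 and are not small heat shock proteins themselves. Hsp90ab1 and Dnajc19 were not analysed here.

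Hsp70 proteins bind short hydrophobic stretches of unfolded proteins and release them in a cycle driven by ATP. DnaJ proteins bring clients to Hsp70 and stimulate its ATPase through their J domain, while exchange factors, among them the Hsp110 proteins Hsph1, Hspa4 and Hspa4l, release ADP. In the brain, constitutive members such as Hspa8 also serve synapses, where Dnajc5 works on synaptic vesicles and Dnajc6 (auxilin) on the uncoating of clathrin. Heat, oxidation and other stresses activate heat shock factor 1, which binds inverted repeats of GAA in the promoters of inducible members such as Hspa1a and Hspb1, whereas stress in the endoplasmic reticulum acts on Hspa5 and Hsp90b1 through other elements.

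Male Swiss mice that differed in how they drank ethanol under free choice were compared. They entered at 6 weeks of age and could drink water, 5% ethanol or 10% ethanol for 10 weeks. Ethanol was then withdrawn for 2 weeks and offered again for 2 weeks, and during a last 2 weeks it was made bitter with 0.005 g/L quinine. Inflexible drinkers preferred ethanol at every stage, also with quinine, and light drinkers took significantly more water than ethanol. Both classes therefore had ethanol access, and no array of water-only mice was analysed here.

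RNA was taken from prefrontal cortex and from whole striatum of both classes, at a stated age of 22 weeks, and each of the 4 groups had 3 arrays. Ethanol in blood averaged 113 ± 11.3 mg/dL in the inflexible class, per the labels, and 48 ± 13.3 mg/dL in the light class. What the error stands for is not said there. Classes were assigned from the drinking itself, and the labels name 1 RNA pool concentration per group. If the 3 arrays were repeat hybridisations of 1 pool, every p-value below measures only the spread between arrays, not between mice. Values are log2 probe set values, and a difference of 1 is a doubling. A gene with several probe sets is given by the one with the highest overall mean. A difference was called when limma's moderated test gave a Benjamini-Hochberg adjusted p under 0.05 over all 45037 probe sets tested. Levels of different genes are not compared, since each probe set has its own response.

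The arrays fell into 2 sets in the control transcripts that are spiked into the hybridisation. The mean of their 18 probe sets was 8.36 to 9.30 on 5 arrays and 6.47 to 7.06 on the other 7. The high set held prefrontal inflexible array 2, prefrontal light array 2, striatal inflexible arrays 1 and 3 and striatal light array 1. The labels do not say what set these arrays apart. Of the 72 members, 48 had a mean above log2 4 (66.7%, against 36.2% of all genes), and the other 24, near the floor of the array, can show little difference. That group of 24 included Hspa1a, Hspa1l and Hspa12b. It also held 7 of the 8 genes classed by symbol as small heat shock proteins, all but Hspb11.

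The promoters of the members that the results turn on are shown first, because they carry the elements for which the inducible genes are known. RefSeq windows of 300 bases around a transcription start, most of each upstream of it (assembly GRCm38.p6), were at hand for 59 of the 72 members, and both strands were searched. The Hspa1b and Hspa1a stretches lie on the minus strand at chr17:34959239-34959448 and chr17:34972157-34972366 and end 1 base before the start. The capitals mark the heat shock core GAANNTTC.

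Hspa1b: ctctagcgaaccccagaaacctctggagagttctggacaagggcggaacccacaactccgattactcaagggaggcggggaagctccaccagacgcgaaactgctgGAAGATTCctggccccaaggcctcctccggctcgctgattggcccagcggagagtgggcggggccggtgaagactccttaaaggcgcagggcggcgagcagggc
Hspa1a: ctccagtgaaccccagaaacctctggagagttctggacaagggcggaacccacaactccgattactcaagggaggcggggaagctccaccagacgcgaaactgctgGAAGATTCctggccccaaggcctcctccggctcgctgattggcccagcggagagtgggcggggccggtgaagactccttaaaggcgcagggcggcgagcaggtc

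These promoters were identical at 207 of 210 bases. The substitutions from Hspa1b to Hspa1a, counted from the 5′ end of the stretch, were T4C, C7T and G209T. Hspa1a and Hspa1b encode the stress-inducible Hsp70 and are near-identical copies, so a probe set of one can also bind transcripts of the other, and the assignment of signal between them is uncertain. The next stretches, all 5′ to 3′ on the gene's strand, show Hspb1 at chr5:135887786-135887845 (plus strand) with 2 cores in capitals, and Dnajb6 at chr5:29735828-29735887 (plus strand) and Hspe1 at chr1:55088055-55088084 (plus strand) with 3-unit elements, in which cores run into each other.

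Hspb1: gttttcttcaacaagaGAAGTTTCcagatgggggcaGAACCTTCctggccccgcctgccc
Dnajb6: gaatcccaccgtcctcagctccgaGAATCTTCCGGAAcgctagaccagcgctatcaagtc
Hspe1: tccgTTCTAGAACCTTCCGGAAggccccgc

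GAANNTTC was found in the windows of 14 of the 59 members, against 9.04% of all 27025 genes with a window, and the other orientation, TTCNNGAA, in 6 of 59 against 9.60%. The 3-unit forms GAANNTTCNNGAA or TTCNNGAANNTTC, which overlap both cores, were in 4 of 59 members (Dnajb6, Hspd1, Hspe1 and Hsph1) against 0.662% of genes. Hspd1 and Hspe1 lie head to head and share this stretch. The windows of Dnajb1 held none of these letters, which says nothing about sites elsewhere. The endoplasmic reticulum stress element, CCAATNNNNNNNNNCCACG, was found in 3 of the 59 members against 0.137% of genes. These were Hspa5 at chr2:34772004-34772063 (plus strand), Hsp90b1 at chr10:86705513-86705572 (minus strand, with the element on the opposite strand) and Dnajc3 at chr14:118937806-118937865 (plus strand).

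Hspa5: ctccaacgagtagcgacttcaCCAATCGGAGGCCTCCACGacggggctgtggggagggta
Hsp90b1: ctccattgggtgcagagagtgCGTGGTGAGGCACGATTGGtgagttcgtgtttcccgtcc
Dnajc3: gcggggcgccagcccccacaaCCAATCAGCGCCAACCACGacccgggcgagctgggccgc

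The first comparison asked how prefrontal cortex differed between inflexible and light drinkers. No member passed the adjusted test (0 of 72 by limma, with 1.04% of all genes called), and 2, Hspa1b and Hspb1, had an unadjusted p under 0.05, where 9.17% of all genes did. Both were lower in inflexible drinkers, and both belong to the heat-inducible group. Of the 72 members, 39 had a higher mean and 33 a lower mean in inflexible drinkers. The median difference was 0.01, beside 0.00 over all genes. In bulk tissue such as this, fewer cells of a type and less RNA per cell cannot be told apart.

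Hspa1b, the inducible Hsp70, had prefrontal values of 5.76, 5.88 and 5.95 in inflexible drinkers and of 6.38, 6.26 and 6.26 in light drinkers. The classes did not overlap. In striatum the values were 5.57, 5.85 and 5.90 in inflexible and 5.86, 5.85 and 5.69 in light drinkers, and here they did overlap. The prefrontal difference was -0.44 ± 0.09 (SE, n = 3 arrays per group), a 1.36-fold lower level, with a limma adjusted p of 0.0682, and the striatal difference was -0.02 ± 0.09. The light prefrontal group thus stood above the other 3 groups, whose means lay between 5.78 and 5.86.

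Both other Hspa1b probe sets had prefrontal differences of the same sign, -0.52 ± 0.16 and -0.49 ± 0.11, at limma adjusted p of 0.315 and 0.116. Over 24 alternative fits the adjusted p of Hspa1b ran from 0.0082 to 0.666, and it passed in 3 of them. These were array weights (-0.42 at 0.0082, in a fit that called 8.27% of all genes), the control split as a block (-0.44 at 0.0445) and the fit without striatal inflexible array 1 (-0.44 at 0.0224, with 0.995% of all genes called). It did not pass with a replicate block (0.157), with an intensity trend and robust setting (0.21), or without any other single array (0.0713 to 0.26). Within the 7 low-control arrays the difference was -0.47 and between the single high-control arrays of each class -0.38.

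Hspb1 (Hsp27), a small heat shock protein that holds unfolded proteins and protects actin, had prefrontal values of 3.78, 3.37 and 3.61 in inflexible and of 4.03, 3.85 and 4.04 in light drinkers. The highest inflexible array lay below the lowest light array, although 4 of these 6 values were under log2 4. The difference was -0.39 ± 0.09 (limma adjusted p = 0.135). In striatum Hspb1 had group means of 3.69 in inflexible and 3.64 in light drinkers, a difference of 0.05 ± 0.09. Its second probe set showed a smaller prefrontal difference of -0.14 ± 0.11. With array weights, which called the 8.27% of genes given above, the first probe set was called (-0.38, adjusted p = 0.0024), and with the control split as a block it was not (adjusted p = 0.0519).

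Hspa1a had prefrontal values of 3.57, 3.31 and 3.64 in inflexible and of 3.81, 3.56 and 3.88 in light drinkers, and striatal values of 3.48, 3.80 and 3.62 against 3.37, 3.56 and 3.53. The classes overlapped in both regions. In each prefrontal class the lowest value was that of the high-control array. The prefrontal difference of -0.24 ± 0.12 was not called (limma adjusted p = 0.716), and it was -0.14 without prefrontal inflexible array 2. With the control split as a block its error shrank to 0.04, and it was called at adjusted p = 0.023. With that block 2 of 72 members were called, Hspa1a and Hspa1b, beside 3.19% of all genes.

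Dnajb1 (Hsp40), the heat-inducible partner of Hspa1a and Hspa1b, had prefrontal values of 5.73, 5.27 and 5.68 in inflexible and of 5.86, 5.79 and 5.80 in light drinkers. In striatum the order was the other way, with 5.39, 5.60 and 5.31 in inflexible and 5.03, 5.29 and 5.29 in light drinkers. The classes were apart in both regions. The differences were -0.26 ± 0.12 in prefrontal cortex and 0.23 ± 0.12 in striatum, and neither was called (limma adjusted p = 0.719 and 1.00). Without prefrontal inflexible array 2, a high-control array, the prefrontal difference was -0.12. It was -0.13 within the low-control arrays and -0.52 between the single high-control arrays, with adjusted p = 0.103 with the split as a block. The striatal difference was 0.15 without inflexible array 2 or without light array 1, and 0.31 and 0.32 within the low-control and high-control arrays. The second Dnajb1 probe set had differences of the same signs, -0.16 ± 0.16 and 0.14 ± 0.16.

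**Figure D1:**
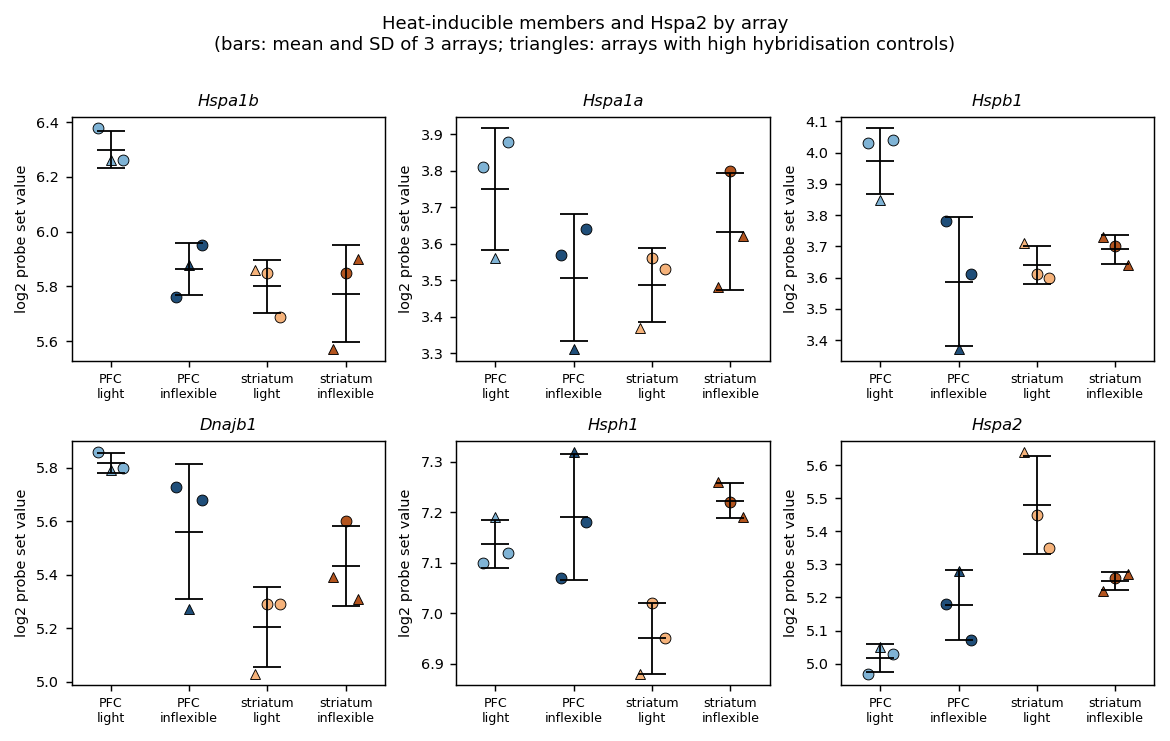
Log2 probe set values of Hspa1b, Hspa1a, Hspb1, Dnajb1, Hsph1 and Hspa2 on the 12 arrays, by region and drinking class, with the mean and SD of 3 arrays as bars and triangles for arrays with high hybridisation controls. Hspa1b in the light prefrontal group (6.26 to 6.38) lies above all other arrays, while Hspa2 is lowest there (4.97 to 5.05) and highest in the light striatal group (5.35 to 5.64).

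On the probe sets with the highest mean, prefrontal differences were smaller in Hspa8, Hsp90aa1, Hsph1 and the DnaJA genes. The widest of any member, Dnajb5 at -0.47 ± 0.29, is taken up with the control split below. Hspa8, the constitutive Hsp70, had values of 9.50, 9.77 and 9.75 in inflexible and of 9.95, 9.84 and 9.71 in light drinkers, which overlapped (-0.16 ± 0.12). Hsp90aa1, the inducible cytosolic Hsp90, differed by 0.06 ± 0.13 and Hsph1 by 0.05 ± 0.06. Hsp90aa1 probe sets with means of 8.51 and 8.38 differed by 0.25 ± 0.18 and 0.21 ± 0.14 and were not called, and its remaining probe sets lay near the floor. The 4 DnaJA genes, general Hsp70 co-chaperones, all had slightly higher means in inflexible drinkers, from 0.01 to 0.13. On these probe sets 0 of them had an unadjusted p under 0.05. The size depended on the probe set in Dnaja2. Its other probe sets differed by 0.33 ± 0.07 (mean 4.34, limma adjusted p = 0.107), 0.05 ± 0.11 and -0.12 ± 0.19. Among 15 members grouped as heat-inducible and cytosolic, a grouping made after values were seen, 9 had higher and 6 lower prefrontal means, with a median of 0.02. Only the lower means of Hspa1b, Hspb1 and Dnajb1 came from arrays without overlap between the classes.

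Higher in inflexible prefrontal cortex without overlap were Hspa2, Hspa9 and Dnajc9. Hspa2, an Hsp70 best known from spermatogenesis that is also present in brain, had values of 5.18, 5.28 and 5.07 against 4.97, 5.05 and 5.03 (0.16 ± 0.07, limma adjusted p = 0.664). Hspa9 (mortalin), the mitochondrial Hsp70 that pulls proteins through the inner membrane, had 5.78, 5.67 and 5.84 against 5.55, 5.41 and 5.62 (0.24 ± 0.11, adjusted p = 0.708). Its probe set with the next highest mean differed by 0.26 ± 0.09. Dnajc9, a nuclear histone chaperone, differed by 0.19 ± 0.10. Hspbp1, an exchange factor of Hsp70, was lower without overlap at -0.22 ± 0.15. In all 7 of 72 members had prefrontal classes apart, 3 higher and 4 lower, while 14.1% of all genes did.

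Members of the endoplasmic reticulum and the mitochondria were compared in the same fit. In the endoplasmic reticulum group of 8, prefrontal differences lay between -0.12 and 0.04. Hspa5 (BiP), its Hsp70, had values of 7.30, 7.16 and 7.39 in inflexible and of 7.39, 7.16 and 7.36 in light drinkers, so the classes had nearly the same values. Hsp90b1 (Grp94) differed by -0.04 ± 0.18 and Dnajc3, an inhibitor of the kinase Eif2ak3 and a BiP co-chaperone, by -0.02 ± 0.18. The 3 genes with the stress element printed above therefore had prefrontal differences smaller than their errors. Of 7 mitochondrial members, 5 had higher means in inflexible prefrontal cortex, and Hspd1 and Hspe1, which form the folding chamber and its lid, differed by 0.18 ± 0.22 and 0.08 ± 0.11. In striatum the chaperonin pair had differences of the other sign, -0.03 ± 0.22 and -0.21 ± 0.11, and none of these was called.

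**Figure D2:**
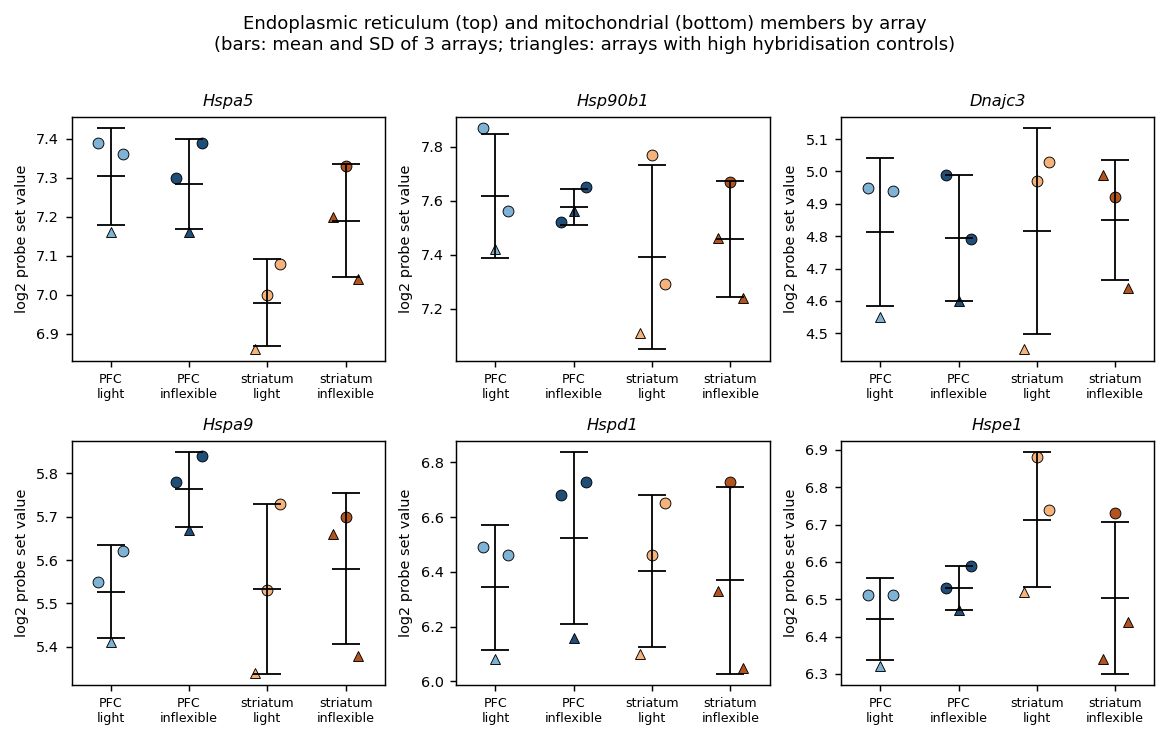
Log2 probe set values of the endoplasmic reticulum members Hspa5, Hsp90b1 and Dnajc3 and the mitochondrial members Hspa9, Hspd1 and Hspe1 on the 12 arrays, with the mean and SD of 3 arrays as bars and triangles for arrays with high hybridisation controls. Hspd1 was 6.05 to 6.33 on the high-control arrays and 6.46 to 6.73 on the others, whatever the group.

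Several other gene classes differed between the prefrontal groups on the same arrays. Array means of 13 measured markers of striatal projection neurons were 5.34 to 5.40 in inflexible and 4.55 to 4.63 in light prefrontal cortex. Of the 13, 7 passed the test as higher, while 2 had lower means, among them Meis2 (-0.47 ± 0.11). For 11 oligodendrocyte and myelin markers the means were 5.65 to 5.78 against 4.65 to 4.85, and 6 passed as higher. The 12 immediate early genes, which follow neuronal activity, had means of 4.55 to 4.65 against 4.93 to 5.10, and 4 passed as lower. Smaller shifts were present in microglial markers (4.34 to 4.57 against 4.50 to 4.75) and interneuron markers (5.78 to 5.95 against 6.06 to 6.17). Of 10 microglial markers 9 had lower means in inflexible drinkers, and 2 passed as lower. Of 10 interneuron markers 8 had lower means, and 1 passed as lower. Choroid plexus and ependymal markers had means of 3.91 to 4.08 against 3.12 to 3.14. All 9 had higher means in inflexible drinkers and 1 passed as higher, with 8 of 9 at or below log2 3.5 in both classes. The marker that passed was Ttr, whose group means were 10.78 against 4.53 (6.25 ± 0.23, limma adjusted p = 3.9e-06). No gene on the array had a wider prefrontal difference. The rest of this list differed by 0.04 (Foxj1) to 0.49 (Clic6), so the shift in its mean came mostly from Ttr. Astrocyte markers were at 6.39 to 6.41 and 6.33 to 6.47 and endothelial markers at 4.11 to 4.23 and 4.19 to 4.40. In neither list did a marker pass. The 9 cortical excitatory markers were at 5.19 to 5.56 and 5.39 to 5.70, with 4 higher and 5 lower means in inflexible drinkers. Neurod6 passed as higher (0.50 ± 0.09), while Cux2 (-0.95 ± 0.19) and Rorb (-0.62 ± 0.18) had lower means. The part of these differences in the prefrontal values of Hspa1b, Hspb1 and the other members was not tested.

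The second comparison asked the same of striatum. There, too, no member passed the adjusted test (0 of 72 by limma, with 0.022% of all genes called), and 4 had an unadjusted p under 0.05, where 3.69% of all genes did. These were Hsph1, Hspa2, Hspa13 and Hspa12b. Higher and lower means were again 39 and 33, with a median of 0.01 beside 0.00 for all genes. The classes were apart in 7 of 72 members, 4 of them higher, while 7.53% of all genes had classes apart. The 13 striatal projection neuron markers also stood apart on these arrays, with means of 6.75 to 6.86 in inflexible and 6.30 to 6.37 in light drinkers. Of these 13, 12 had higher means in inflexible drinkers and 0 passed the adjusted test, with 10 at an unadjusted p under 0.05 and a median difference of 0.52. The 10 interneuron markers had means of 5.71 to 5.87 and 5.58 to 5.71. The part of these markers in the striatal values below was not tested.

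Hsph1 (Hsp110), an exchange factor that helps Hsp70 to dissolve aggregates, had striatal values of 7.26, 7.22 and 7.19 in inflexible and of 6.88, 7.02 and 6.95 in light drinkers. Every inflexible array lay above every light array, and the inflexible values were close to those of both prefrontal groups (7.07 to 7.32). The difference was 0.27 ± 0.06, a 1.21-fold higher level (limma adjusted p = 0.515). Its other probe set differed by 0.09 ± 0.31. Within the low-control arrays the difference of the first probe set was 0.23 and within the high-control arrays 0.34.

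Hspa2 had striatal values of 5.22, 5.26 and 5.27 in inflexible and of 5.64, 5.45 and 5.35 in light drinkers. The classes were apart with the inflexible arrays lower, the reverse of prefrontal cortex, and the difference was -0.23 ± 0.07 (limma adjusted p = 1.00), or -0.15 without light array 1. Hspa5 had 7.20, 7.33 and 7.04 against 6.86, 7.00 and 7.08, which overlapped (0.21 ± 0.10). Dnajc17, a spliceosome-associated J protein, differed by 0.32 ± 0.16 with overlapping classes. Hspa13, an Hsp70 of the microsomal membrane, differed by 0.20 ± 0.09, but its other probe set above log2 4 differed by -0.53 ± 0.22, so its direction depended on the probe set. The remaining members with classes apart in striatum were Dnajc15 and Hspa1l, higher, and Dnajc4 and Hspa12b, lower, all by less than 0.2.

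**Figure D3:**
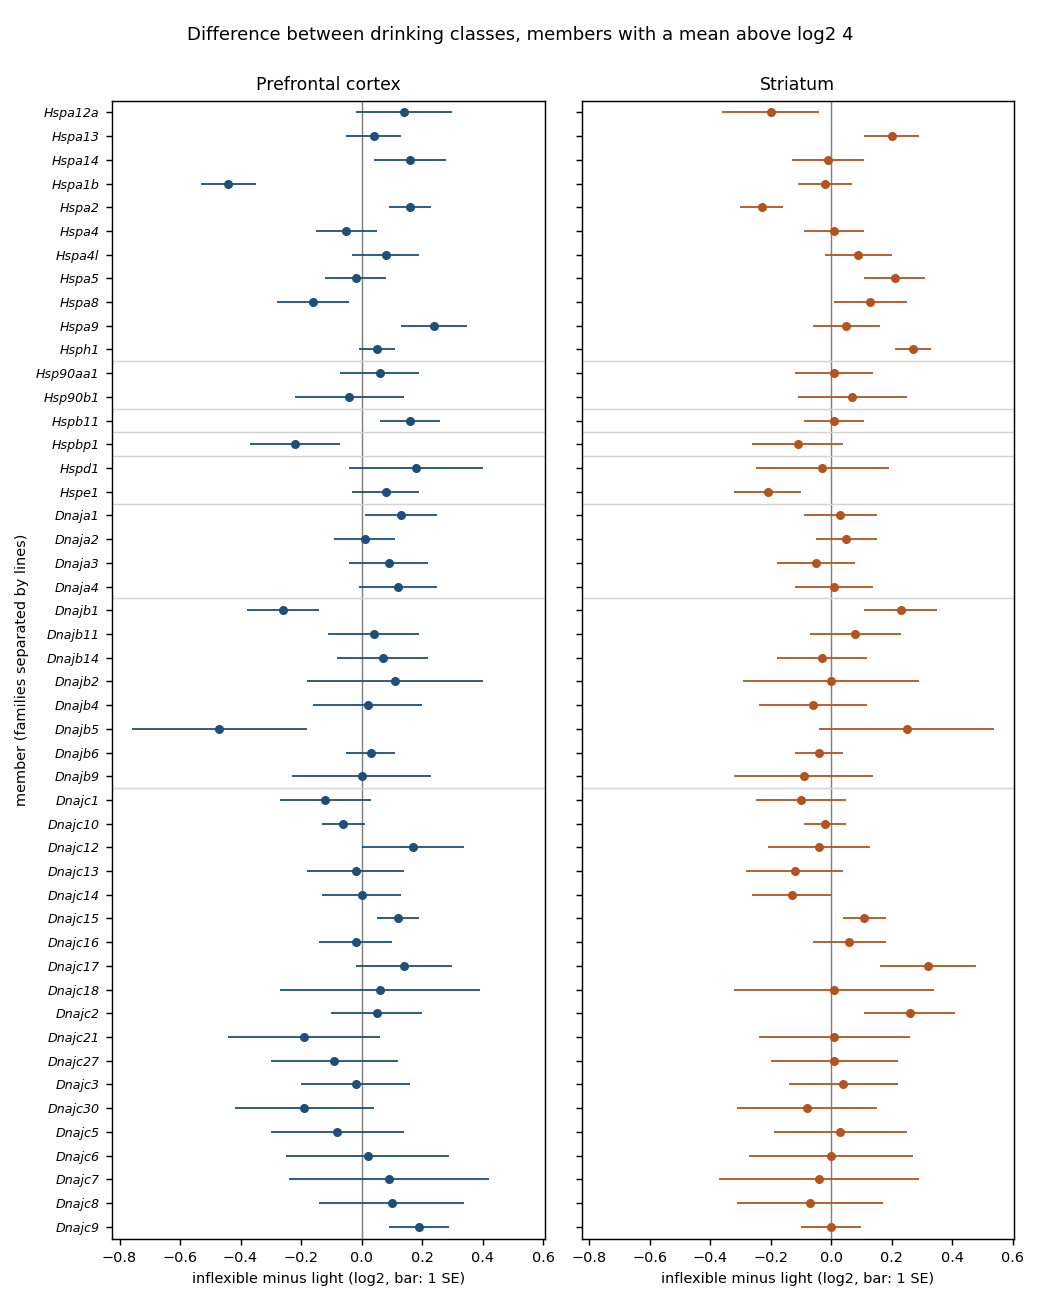
Inflexible minus light difference of log2 values, with 1 SE as bars, for the 48 members with a mean above log2 4, in prefrontal cortex (left) and striatum (right), ordered by family. Most points lie within 0.2 of 0, Hspa1b stands at -0.44 in prefrontal cortex, and Dnajb5 at -0.47 has a wide bar (SE 0.29).

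In 2 small families every prefrontal mean was higher in inflexible drinkers, the 4 DnaJA genes given above and the chaperonin pair, and the larger families divided. In prefrontal cortex 7 of 14 Hsp70 genes had higher and 7 lower means in inflexible drinkers, with differences from -0.44 to 0.24. The 13 DnaJB genes divided into 9 and 4 (-0.47 to 0.11) and the 27 DnaJC genes into 13 and 14 (-0.19 to 0.19). Of the 8 genes classed by symbol as small heat shock proteins, 2 had higher and 6 lower prefrontal means. Apart from Hspb1 (-0.39) and Hspb11 (0.16) all lay within 0.06 of 0. In striatum the Hsp70 genes divided into 9 and 5 (-0.23 to 0.27), the DnaJB genes into 6 and 7 (-0.09 to 0.25) and the DnaJC genes into 14 and 13 (-0.17 to 0.32). The 6 members grouped for vesicles, membrane traffic and neuronal protein quality, Dnajc5, Dnajc6, Dnajc13, Dnajc27, Dnajb2 and Dnajb5, had medians of -0.05 in prefrontal cortex and 0.01 in striatum. Dnajc6 differed by 0.02 ± 0.27 and Dnajc5 by -0.08 ± 0.22 between the prefrontal classes. Their errors were among the wider ones of the set, and Dnajc6 differed by 0.56 between the sides of the control split.

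The drinking differences of the 2 regions were then set against each other in the interaction of the same fit. No member was called (0 of 72 by limma, with 0.44% of all genes called), and 6 had an unadjusted p under 0.05, where 7.09% of all genes did. The striatal minus prefrontal difference was -0.39 ± 0.10 for Hspa2, 0.42 ± 0.13 for Hspa1b, 0.44 ± 0.13 for Hspb1, 0.49 ± 0.18 for Dnajb1, 0.39 ± 0.16 for Hspa1a and 0.22 ± 0.09 for Hsph1. The limma adjusted p ranged from 0.277 for Hspa2 to 0.840 for Hspa1a. These 6 were picked by their small p, so their signs are no pattern of the set. Over the 15 heat-inducible and cytosolic members, 9 had positive and 6 negative values, with a median of 0.04. With array weights 1 of 72 members, Hspb1, passed (0.46, adjusted p = 0.0362), beside 2.35% of all genes.

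With the control split as a block, 2 of 72 members passed the interaction test, beside 1.33% of all genes. They were Hspa1a (0.47 ± 0.06, adjusted p = 0.0103) and Dnajb1 (0.58 ± 0.10, adjusted p = 0.0313), and Hspa2 had -0.43 ± 0.08 at adjusted p = 0.0558. For Dnajb1 the value was 0.44 within the low-control and 0.85 within the high-control arrays, and for Hspa1a it was 0.49 and 0.43. Both genes had lower values on the high-control arrays, by 0.25 each.

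The last comparison was striatum against prefrontal cortex, averaged over the drinking classes. Of the 72 members, 2 were called, beside 5.38% of all genes. Hspa2 was higher in striatum by 0.27 ± 0.05 (limma adjusted p = 0.0163) and Hspa1b lower by 0.30 ± 0.06 (adjusted p = 0.0306). With these, 12 had an unadjusted p under 0.05, where 15.8% of all genes did. Among the other 10 were Dnajb1 at -0.37 ± 0.09 (adjusted p = 0.0526), Dnajc10, a disulphide reductase of the endoplasmic reticulum, at -0.19 ± 0.05 (0.0638), Hspa5 at -0.21 ± 0.07 (0.161) and Hsp90aa1 at -0.28 ± 0.09 (0.188). The remaining 6 were Hspa8 (-0.22 ± 0.08), Dnajb6 (-0.17 ± 0.05), an inhibitor of polyglutamine aggregation, Dnajc21 (-0.50 ± 0.18) and Hspb3 (-0.14 ± 0.04), all with lower means in striatum, and Dnajc2 (0.33 ± 0.10), a J protein at the ribosome, and Hspb11 (0.19 ± 0.07), with higher means. Genes with several probe sets add to this, since another Dnajc21 probe set was called at -0.51 ± 0.09 (limma adjusted p = 0.0090). So was a Dnajc6 probe set with a mean of 3.17, near the floor (-0.30 ± 0.05, limma adjusted p = 0.0098). Members were higher in striatum in 33 cases and lower in 39, with a median of -0.01 beside 0.00 for all genes.

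The classes were also fitted alone. Among light drinkers alone Hspa2, Hspa1b and Dnajb1 were called, beside 4.68% of all genes, and the difference of Dnajb1 was -0.62 ± 0.12. Among inflexible drinkers alone 0 of 72 members were called, beside 1.2% of all genes, and Hspa2 differed by 0.07 ± 0.07 and Hspa1b by -0.09 ± 0.09. The test of that contrast between classes is the interaction given above, which called neither gene. Without prefrontal light array 1 no member was called between regions (Hspa2 0.26 at adjusted p = 0.0505, Hspa1b -0.28 at 0.0851), beside 4.08% of all genes. Without striatal inflexible array 2, 5 members were called, beside 5.09%. With array weights 10 of 72 were called, beside 12% of all genes. With the control split as a block 10 of 72 members were called, beside 11.2% of all genes. Higher in striatum were then Hspa2, Hspb11 and Dnajb2, and lower were Hspa1b, Hspa5, Hsp90aa1, Dnajb1, Dnajc6, Dnajc10 and Dnajc21.

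The split in the hybridisation controls went with larger differences in many members than the drinking classes did. Between its sides, with the 4 groups in the model, 36 of 72 members differed at adjusted p under 0.05, as did 33.5% of all genes, and 28 of these were lower on the high-control arrays. Among the 48 members above log2 4, 33 differed, 26 of them lower, while 53.1% of all genes above that level differed. The median difference was -0.20 in these members and -0.12 in those genes. The widest were Dnajc7 (-0.74 ± 0.07), a co-chaperone that binds both Hsp70 and Hsp90, Dnajc18 (-0.72 ± 0.09) and Dnajb2 (-0.66 ± 0.06), a neuronal J protein that sends clients to the proteasome.

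Dnajc7 had 5.57 and 5.54 on the high-control prefrontal arrays and 6.30 to 6.50 on the other 4, in either drinking class. Members higher on the high-control arrays included Dnajb5 (0.61 ± 0.09), Dnajc6 (0.56 ± 0.09), Dnajb12 (0.47 ± 0.07) and Dnajb9 (0.38 ± 0.12). The prefrontal difference of -0.47 ± 0.29 in Dnajb5 stood between values of 5.08, 5.56 and 5.15 in inflexible and 5.52, 6.12 and 5.55 in light drinkers, which overlapped. In each class the high-control array had the highest value. On the same side of the split the light values were higher, 5.52 and 5.55 against 5.08 and 5.15 (low) and 6.12 against 5.56 (high). The other Dnajb5 probe sets, below log2 4, differed by -0.12 ± 0.46 and 0.15 ± 0.11. Hspa1b (-0.02 ± 0.07), Hsph1 (0.04 ± 0.05) and Hspb1 (-0.11 ± 0.06) did not differ between the sides at that threshold.

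**Figure D4:**
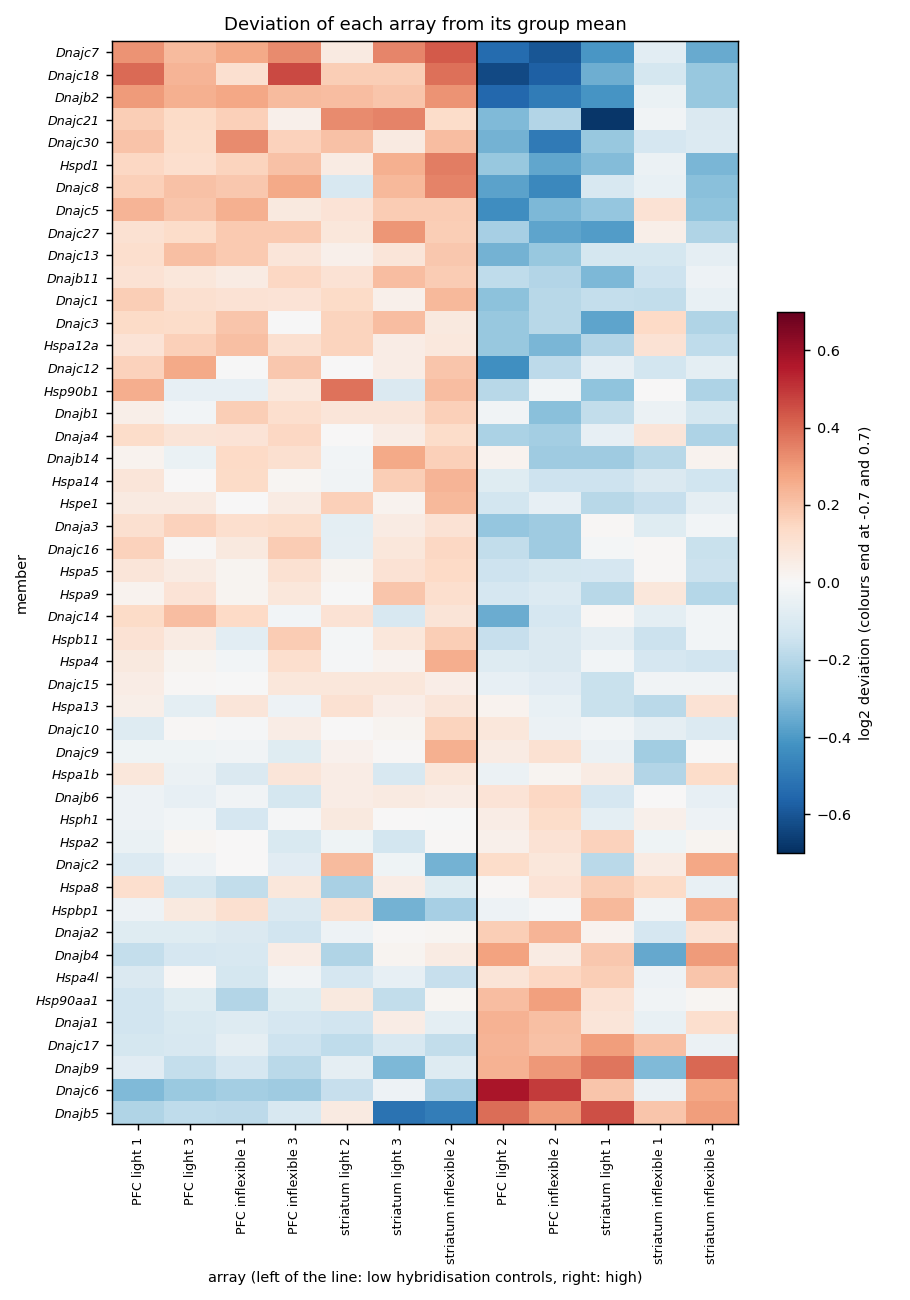
Deviation of each array's log2 value from the mean of its group, for the 48 members with a mean above log2 4 (one line each, ordered by their difference between control sides), with the 7 low-control arrays left of the line and the 5 high-control arrays right of it. Dnajc7, Dnajc18 and Dnajb2 at the top are blue (below their group mean) on the high-control arrays, and Dnajb5 and Dnajc6 at the bottom are mostly red there.

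Genes that work with the members were read from lists. Of the heat shock factors, Hsf2, Hsf4 and Hsf5 were measured, all with group means at or below log2 3.5, and Hsf1 was not analysed here. Neither these 3 nor Hsbp1, which encodes a protein that binds the factors, passed in any comparison, with the smallest prefrontal p values in Hsf4 (-0.14 ± 0.06) and Hsf2 (0.10 ± 0.07). Of 26 measured Hsp70 and Hsp90 co-chaperones outside the DnaJ family, with Hspbp1 left to the members, 0 passed between drinking classes, and 1, Fkbp5, passed between regions. Fkbp5, an Hsp90 co-chaperone that restrains the glucocorticoid receptor and is induced by it, was higher in striatum by 0.43 ± 0.09 (limma adjusted p = 0.0343), and its prefrontal difference between classes was 0.46 ± 0.13 (adjusted p = 0.247).

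Of 7 measured relatives with other symbols, 1 passed between regions. This was Cryab, the small heat shock protein alpha B crystallin, abundant in oligodendrocytes, at 0.52 ± 0.05 (limma adjusted p = 4.0e-04). Its prefrontal level was higher in inflexible drinkers by 0.38 ± 0.07 at adjusted p = 0.0543, opposite in sign to Hspb1, while the oligodendrocyte markers given above were higher on the same arrays. Of 14 subunits of the cytosolic chaperonin and prefoldin, 0 passed and 10 had higher prefrontal means in inflexible drinkers, with a median of 0.12 and the smallest p values in Cct4 (0.25 ± 0.08) and Cct2 (0.28 ± 0.13). Of 20 genes of the endoplasmic reticulum and its stress response, 1 passed, Eif2ak3 (PERK), which was lower in striatum by 0.15 ± 0.03 (adjusted p = 0.0282). Calr, a calcium-binding chaperone of the endoplasmic reticulum, had a prefrontal difference of -0.44 ± 0.14 (adjusted p = 0.317).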

How the data were processed

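The authors deposited 1 table of log2 probe set values for 12 one-colour arrays, made with RMA and affy, per the submitters' processing notes, which give no versions. Base 2 was inferred from the range of 2.76 to 12.17, since the table does not state it. This kind of summary compresses low values. The number of arrays limits the precision. Of 45101 probe sets, 64 controls were left out. Platform annotation gave 34945 a single symbol, 932 several and 9160 none. The 72 members (174 probe sets, 46 genes with more than 1) all matched RefSeq, which changed 0 symbols.

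All 12 arrays entered 1 linear model with 4 group means (lmFit and eBayes of limma 3.58.1, R 4.3.3), which left 8 residual degrees of freedom. Tests were two-sided, with Benjamini-Hochberg adjustment over 45037 probe sets. The fit was checked on simulated data. Members were named if called, if among the 5 smallest p above log2 4 in a drinking comparison or the 3 smallest of the interaction, or if on a short list of well-known members, and related lists gave their called genes or the 2 smallest prefrontal p. Other genes named, the role groups among them, were chosen after their values were seen. Members and lists were chosen with earlier results of these data known. Alternatives covered normalisation, level filter, choice of probe set, variance model, array weights, blocks for replicate number and control split, and leaving out arrays. Promoter windows come from RefSeq (GRCm38.p6). Protein sequences were not used here.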

Additional observations from a re-analysis of the deposited data

Results flagged for a closer look

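In 4 members the drinking difference was flagged for how it differed between striatum and prefrontal cortex. Each passed the interaction test in an alternative fit or had classes apart in opposite directions. How many of all genes met this rule was not counted. In the main fit 6 of 72 members had an unadjusted interaction p under 0.05 by limma, where 7.09% of all genes did. The striatal minus prefrontal value was 0.49 in Dnajb1 and -0.39 in Hspa2, whose arrays lay apart by class in both regions and in opposite directions. It was 0.39 in Hspa1a and 0.44 in Hspb1. The difference passed its test in Hspa1a and Dnajb1 only with the control split as a block, beside 1.33% of all genes. In Hspb1 it passed only with array weights, beside 2.35% of all genes. In the fit without these it passed in none of the 4 (limma adjusted p = 0.654, 0.277, 0.840 and 0.417 in the order given).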

How the results depend on the processing

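For striatum 0 of 72 members were called under every alternative, 24 in all. In prefrontal cortex the count was 3 with array weights (beside 8.27% of all genes) and 2 with the control split as a block (3.19%). It was 0 to 1 with one array left out (1 without striatal inflexible array 1, beside 0.995%). Otherwise it was 0 in the fits that kept more than 1 array per group. For the interaction it was 1 with array weights (beside 2.35% of all genes), 2 with the control block (1.33%) and 0 to 0 with one array left out. Between regions, against 2, it was 1 with the probe set of highest variance, 1 with an intensity trend and robust setting (Hspb3), 10 with array weights (beside 12% of all genes), 10 with the control block (11.2%), 8 on low-control arrays alone (10.1%), 0 on high-control arrays alone (1 residual degree of freedom), 0 among inflexible drinkers alone, and 0 to 5 with one array left out. For the highest-variance, intensity-trend and replicate-block fits between regions, the share of all genes called is not given here. Their counts therefore cannot be set against it. The causes of these moves were not tested.

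Arrays of the same replicate number deviated with correlations from -0.77 to 0.85 in 18 pairs. These pairs lie partly on one side of the control split and partly across it. They therefore cannot tell whether replicate numbers pair the arrays. As a block, replicate numbers left 1 member called between regions (Hspa2, 0.27, limma adjusted p = 0.0335) and 0 elsewhere. Arrays on the same side of the control split correlated at 0.18 to 0.85 (27 pairs) and those on opposite sides at -0.83 to 0.05.

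Signs turned in 3 cases. The striatal difference of Hspa13 was -0.10 as the mean of its probe sets and -0.53 with the one of highest variance, and the interaction of Hsph1 was -0.01 with that choice. Of 36 other member probe sets above log2 4, 26 shared the sign of the representative in prefrontal cortex, 23 in striatum, 24 in the interaction and 27 between regions.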
